A study of Arabidopsis thaliana with 24 samples.

Results

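The loss of the histone methyltransferase SDG8 was examined in starved, dark-kept Arabidopsis shoots, with 3 arrays of sdg8-5 set against 3 arrays of WT, out of 24 arrays in the series. The 6 arrays were taken by their titles, which mark them as neither given sucrose nor light during the final 2 h. Plants of both genotypes had grown hydroponically for 3 weeks in long days of white light at 50 µE. Their basal MS medium held 1% sucrose and 2 mM KNO3. They had then spent 24 h without sucrose in darkness. The other 18 arrays hold the same genotypes after 2 h with sucrose in darkness, with light of 70 µE, or with both. WT is the unmutagenized parent line, and both genotypes carry its pASN1-HPT2 transgene, in which the ASN1 promoter drives a resistance gene. sdg8-5, first named cli186, is 1 fast-neutron line in which SDG8 (AT1G77300) with its promoter and part of the next gene, AT1G77310, is missing. Neither of these genes has a named probe set here, so the genotypes were not checked by the deleted transcript. The 3 arrays of each genotype came from separate sets of biological replicates.

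SDG8 belongs to the SET domain methyltransferases and adds methyl groups to lysine 36 of histone H3. The trimethylated form, H3K36me3, lies over the bodies of transcribed genes in plants and is read as a mark of active transcription. Plants without SDG8 flower early, branch more and respond less to several pathogens. When a leaf is kept in darkness without sugar it stops net carbon gain, starts to break down branched-chain amino acids, proteins and lipids, and shuts down growth, so the 6 arrays describe the mutant at the low end of its energy supply.

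Array intensities, scaled by the authors to a common mean, were measured for 12431 named genes that reached 40 on at least 1 array. The median intensity of all probe sets was 180.0 to 198.0 on the sdg8-5 arrays and 187.0 to 199.0 on the WT arrays, and correlations of log2 values were 0.915 to 0.938 within a genotype and 0.909 to 0.927 between genotypes. RCA, the activase of Rubisco and a leaf marker, did not move (log2 difference -0.00), and the pollen and tapetum markers AMS and AT5G07230 were dim in both genotypes (means of 13.3 to 21.4). Of the root markers, PYK10 was bright in both genotypes (5323 in sdg8-5 and 6119 in WT) while EXPA7 and EXPA18 were dim (means of 35.7 to 63.0), and all 3 missed the threshold. A control probe set for 25S ribosomal RNA read 13600, 15300 and 12300 in sdg8-5, against 7150, 8820 and 2950 in WT, a ratio of 2.4. These groups did not overlap, and the exact permutation test gave a two-sided p of 0.1, the smallest that 3 against 3 arrays allow. In each of the other treatments the sdg8-5 arrays again read higher without overlap. The shoots are bulk tissue, in which fewer cells of a type and less RNA per cell cannot be told apart.

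At a false discovery rate (FDR, the limma p adjusted by Benjamini and Hochberg over all kept probe sets) under 0.05, 369 genes were lower (2.97% of those tested) and 150 were higher (1.21%) in sdg8-5, so that 71.1% of the changes were falls. Over all 21490 probe sets other than controls, named or not, 636 were lower (2.96%) and 281 higher (1.31%). The median log2 difference was -1.07 among the lower genes, 1.02 among the higher genes and 0.0027 over all genes. Of the lower genes 207 differed at least 2-fold, 55 at least 4-fold and 17 at least 8-fold. Of the higher genes 78, 20 and 6 did so. The 3 sdg8-5 values lay entirely below the 3 WT values for 366 of the lower genes and entirely above them for 149 of the higher ones, beside 10.4% and 8.51% of all genes that were separated downward and upward. Median WT intensity in the 3 other treatments, on arrays outside this comparison, was 440.0 for the lower genes, 253.0 for the higher genes and 192.0 over all genes. The spread was shared over all 24 arrays. A fit of only the 6 arrays called 7 falls and 1 rise, and 101 of 107 named genes lost their calls. Adding the 25S reading as a covariate gave 258 falls and 99 rises, 81 of the 150 higher genes (54.0%) were shared, and 28 of the 107 lost their calls. A fit with the spike-in reading instead kept 337 of the 369 lower genes (91.3%) and 120 of the 150 higher ones (80.0%). In it 7 of the 107 lost their calls. The counts also depended on single arrays. Without WT replicate 2 the lower genes numbered 223, and without sdg8-5 replicate 2, sdg8-5 replicate 3 or WT replicate 1 the higher genes numbered 70, 86 and 96. There were 166 lower genes (45.0%) and 42 higher genes (28.0%) that stayed past the threshold whichever of the 6 arrays was left out.

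NRPB6B, one of a pair of genes for a small subunit that RNA polymerases share, was bright in WT and low in every sdg8-5 array. Its intensity was 114.5, 129.9 and 105.6 in sdg8-5, against 970.5, 1237 and 1004 in WT. The difference was 9.16-fold (log2 -3.19, SE 0.29, limma FDR 7.49e-06). No WT array came near an sdg8-5 array, and the sister gene NRPB6A did not follow (log2 -0.15, FDR 0.783). AT3G62220 was above 40 in WT only, with 7.63, 20.01 and 4.26 in sdg8-5, against 281.4, 176.2 and 309.8 in WT. Its mutant arrays all lay below 40, the intensity a probe set had to reach once to be kept, and against a floor of 40 the WT mean was at least 6.39-fold higher. AT4G11900 and AT1G67620 behaved alike, with sdg8-5 arrays of 4.16 to 22.0 and WT arrays of 125.3 to 217.5, at least 4.53-fold and 4.49-fold over the floor. All 4 genes kept their calls whichever array was left out, and each had negative differences in the 3 other treatments as well. AT5G12940, named after its values were seen, had 66.9, 37.7 and 77.0 in sdg8-5, against 266.7, 296.6 and 327.5 in WT (log2 -2.35, SE 0.51, limma FDR 0.0122), although its FDR was 0.0665 without sdg8-5 replicate 2.

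**Figure D1:**
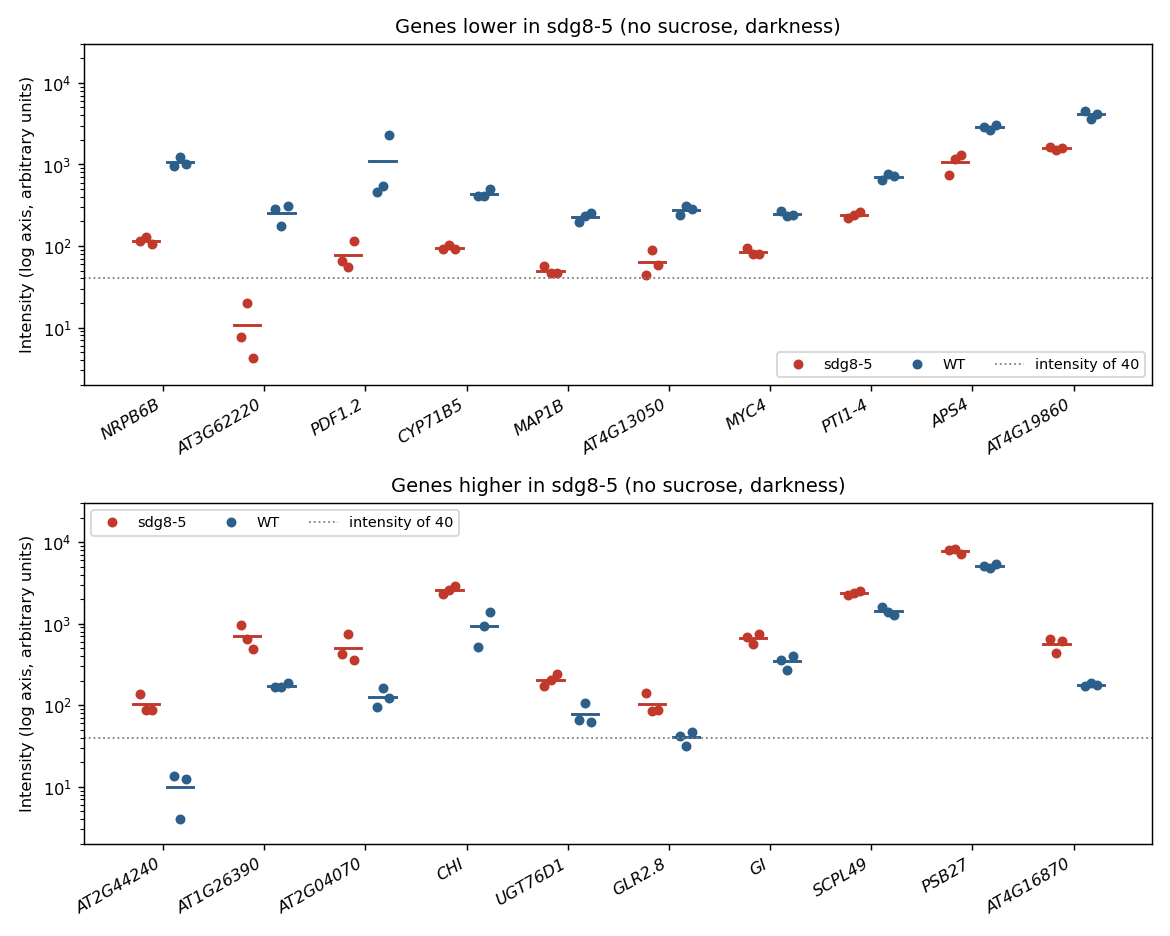
Intensity of 10 lower genes (upper panel) and 10 higher genes (lower panel) on each array of starved darkness, on a log axis in arbitrary units. Points are the 3 arrays of sdg8-5 (red, left of each pair) and WT (blue, right), bars are their means, and the dotted line marks 40. NRPB6B has 105.6 to 129.9 in sdg8-5 and 970.5 to 1237 in WT. The genes were chosen among those past the threshold, nearly all of which have separate arrays, so separation in all 20 is no further support.

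Genes of the transcription machinery were few on the array under a name. Of 12 measured RNA polymerase subunits 2 were lower and none was higher (beside 2.97% and 1.21% of all genes), with a median log2 difference of -0.15 beside 0.0027 over all genes. The second was NRPE7, a subunit of RNA polymerase V, which makes noncoding transcripts for DNA methylation. It had 59.2, 63.8 and 49.7 in sdg8-5, against 222.1, 189.6 and 116.0 in WT, a 2.96-fold fall (SE 0.31 on the log2 scale, limma FDR 0.00701) with separate groups. AT5G08565, annotated SPT4-1 for a transcription elongation factor, had 127.6, 136.4 and 109.4 in sdg8-5, against 210.7, 190.0 and 253.9 in WT (log2 -0.81, limma FDR 0.0334). That call was lost without any of 5 of the 6 arrays, with an FDR of up to 0.13. MAP1B, a methionine aminopeptidase that trims the first residue of new proteins, was steadier, with 56.9, 46.2 and 47.0 in sdg8-5, against 198.9, 230.2 and 251.4 in WT (4.53-fold lower, limma FDR 3.88e-05). AT5G08565 and MAP1B were named after their values were seen.

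None of 3 measured genes of defence signalling was past the threshold (median -0.05), beside 4.18% of all genes, while single genes of other defence groups were. PDF1.2, a plant defensin induced by jasmonate and ethylene, had 65.4, 54.6 and 114.4 in sdg8-5, against 465.7, 547.7 and 2284 in WT. The fall was 11.3-fold (log2 -3.49, SE 0.64, limma FDR 0.00371), and WT replicate 3 was far above the other WT arrays. The close copy PDF1.2b averaged 233.8 in sdg8-5 and 1857 in WT (log2 -2.64, FDR 0.077), and since probes may read both copies the values of the pair are not fully separate. MYC4, a transcription factor of the jasmonate response, had 95.0, 80.8 and 78.9 in sdg8-5, against 266.4, 236.1 and 237.9 in WT (log2 -1.54, SE 0.20, limma FDR 0.000164), without overlap. These were the 2 lower genes among 16 measured in the jasmonate and defensin list, in which none was higher and the median was -0.02 (beside 2.97% lower and 1.21% higher over all genes). PTI1-4 and CHI were named after their values were seen. PTI1-4, a kinase named for its tomato counterpart that binds the resistance kinase Pto, had 218.8, 237.4 and 262.0 in sdg8-5, against 642.3, 754.2 and 724.4 in WT (2.95-fold lower, limma FDR 9.8e-06). CHI, a chitinase, had 2317, 2589 and 2930 in sdg8-5, against 519.2, 940.2 and 1374 in WT (2.97-fold higher, SE 0.31 on the log2 scale, limma FDR 0.00557). Its groups were separate by a wide margin.

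Cytochrome P450 genes encode oxygenases, many of them of secondary metabolism. Of 20 measured cytochrome P450 genes, most of them of the CYP71B family because few others carry a symbol in the annotation used, 4 were lower and none was higher (beside 2.97% and 1.21% of all genes), and the median was -0.52. CYP71B5 had 91.0, 104.3 and 91.4 in sdg8-5, against 409.1, 404.9 and 503.4 in WT (log2 -2.20, SE 0.24, limma FDR 4.1e-05). CYP71B36 averaged 9.67 in sdg8-5 and 88.6 in WT, at least 2.22-fold over the floor of 40, and CYP71B34 averaged 201.8 in sdg8-5 and 643.3 in WT. CYP71B22 was 3.47-fold lower, but without WT replicate 1, WT replicate 2, sdg8-5 replicate 2 or sdg8-5 replicate 3 its FDR was up to 0.0844. CYP71B22, CYP71B34 and CYP71B36 belong to 1 stretch of similar genes on chromosome 3, where probes may read more than 1 member. Within that stretch the bright gene CYP71B23 averaged 4122 in sdg8-5 and 5410 in WT and missed the threshold (log2 -0.38, FDR 0.319).

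Of 3 measured genes of sulfate assimilation 2 were lower (beside 2.97% of all genes), APS4 and APS3, which encode ATP sulfurylases that activate sulfate before its reduction. APS4 had 749.0, 1167 and 1304 in sdg8-5, against 2913, 2620 and 3016 in WT, a 2.72-fold fall (log2 -1.45, SE 0.21, limma FDR 0.000413). APS3 had 167.5, 168.2 and 219.7 in sdg8-5, against 258.1, 356.3 and 342.3 in WT (log2 -0.78, limma FDR 0.00592). Both genes fell without overlap, and the only other measured member of that list, the sulfite reductase gene SIR, was level (log2 0.005, FDR 0.994). BCAT4, the aminotransferase that starts chain elongation of methionine for glucosinolates, averaged 530.1 ± 141.0 in sdg8-5 and 1159 ± 319.1 in WT (SD, n = 3 each, limma FDR 0.025). It was the 1 lower gene of 4 measured in its list (beside 2.97% of all genes). Its FDR was up to 0.121 when WT replicate 2, WT replicate 3, sdg8-5 replicate 1 or sdg8-5 replicate 2 was left out. Serine carboxypeptidase-like proteins, a family of acyltransferases and proteases, had 5 lower and 1 higher of 27 members (beside 2.97% and 1.21% of all genes, median -0.28). SCPL27, 1 of the 5, had an FDR of up to 0.138 without WT replicate 2, WT replicate 3, sdg8-5 replicate 2 or sdg8-5 replicate 3. scpl20 had 180.4, 261.7 and 156.0 in sdg8-5, against 406.3, 402.1 and 510.6 in WT, whereas SCPL49, a vacuolar carboxypeptidase Y, had 2217, 2388 and 2513 in sdg8-5, against 1599, 1409 and 1282 in WT. Both scpl20 and SCPL49 kept their calls whichever array was left out.

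Cell wall genes were represented by 40 named members, of which 3 were lower and none higher (beside 2.97% and 1.21% of all genes, median -0.20). EXPA8, an expansin that loosens the wall during growth, had 372.4, 393.4 and 502.3 in sdg8-5, against 1131, 1083 and 1206 in WT (2.72-fold lower, limma FDR 0.00318). EXPB1, of the beta class of expansins, had 11.4 to 27.1 in sdg8-5 and 89.9 to 109.8 in WT, at least 2.47-fold over the floor. CSLA03, a mannan synthase of the cellulose synthase-like family, averaged 166.8 in sdg8-5 and 309.2 in WT (log2 -0.92, limma FDR 0.0228), with an FDR of up to 0.102 when a WT array or sdg8-5 replicate 1 was left out. The wall O-acetyltransferase family member TBL38 was named after its values were seen. It had 302.7, 276.1 and 275.8 in sdg8-5, against 619.6, 686.7 and 808.7 in WT.

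The 5 most abundant of the lower genes differed by 1.41-fold to 2.62-fold. AT4G19860, annotated as an alpha/beta-hydrolase, had the lowest FDR of these, at 1642, 1483 and 1587 in sdg8-5, against 4549, 3650 and 4171 in WT (2.62-fold, SE 0.13 on the log2 scale, limma FDR 1.42e-05). AT4G19865, its neighbour, had 7.43 to 16.5 in sdg8-5 and 109.2 to 174.4 in WT, at least 3.61-fold over the floor. AT3G16670 had 5564, 5937 and 4883 in sdg8-5, against 8205, 12430 and 11960 in WT (1.96-fold). The falls of AT5G11420, AT4G30760 and AT4G16450, the remaining lower genes among the 5 most abundant, were 1.41-fold to 1.65-fold and each was lost without at least 3 of the 6 arrays, with an FDR of up to 0.143. DRT100, a leucine-rich repeat gene named for DNA damage tolerance, had 1345, 1394 and 1421 in sdg8-5, against 2476, 2781 and 2590 in WT, with very little spread among arrays of a genotype. DRT100, SRX and NQR were named after their values were seen. SRX, a sulfiredoxin that repairs oxidized peroxiredoxins, averaged 597.8 in sdg8-5 and 1181 in WT, and NQR, an NADPH:quinone oxidoreductase, averaged 1091 in sdg8-5 and 2008 in WT.

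Annotations in the study's list of genes for which genotype and light interacted, a list chosen on these samples, named further falls. AT4G13050, an acyl-ACP thioesterase that releases fatty acids in plastids, had 44.0, 89.4 and 58.2 in sdg8-5, against 237.0, 310.9 and 286.2 in WT (4.52-fold lower, limma FDR 1.74e-05). AT1G65370, a TRAF-like protein, had 539.7, 189.7 and 166.8 in sdg8-5, against 1294, 1355 and 1189 in WT. AT4G10300, of the cupin family, had 330.0, 280.3 and 299.0 in sdg8-5, against 698.2, 970.7 and 887.6 in WT. All 3 genes had separate groups, kept their calls whichever array was left out, and had negative differences in every other treatment. AT5G23405, an HMG-box protein, was 2.69-fold lower, and AT1G51805, a leucine-rich repeat kinase, 2.34-fold lower. The genes of this paragraph were named after their values were seen. None was past the threshold for a difference between starved darkness and the mean of the other treatments (limma FDR 0.966 to 0.999). Missing it does not show that the effects were equal, and this contrast of treatments is not the study's interaction of genotype and light.

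Few hormone genes passed the test. None of 12 auxin genes or 7 genes of ethylene and abscisic acid was past the threshold (medians -0.05 and 0.02), beside 4.18% of all genes. Of 7 genes of cytokinin, gibberellin and brassinosteroid 1 was higher, beside 1.21% of all genes. It was GID1B, a gibberellin receptor, with 568.3, 680.7 and 813.2 in sdg8-5, against 320.6, 471.8 and 438.6 in WT (1.68-fold, limma FDR 0.022). SLY2, an F-box protein of gibberellin signalling named after its values were seen, was 2.09-fold higher (limma FDR 0.0417). Both calls rested on single arrays, since the FDR was up to 0.111 for GID1B without WT replicate 1, sdg8-5 replicate 2 or sdg8-5 replicate 3, and up to 0.186 for SLY2 without any array but sdg8-5 replicate 3. GSTU23, the 1 lower gene of 14 glutathione transferases (beside 2.97% of all genes), averaged 5.89 in sdg8-5 and 59.1 in WT, only 1.48-fold over the floor of 40.

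The 12 largest rises with separate arrays and a mean of at least 100 carried only locus names in the annotation used. AT2G44240 stayed past the threshold whichever array was left out, with 136.3, 87.4 and 86.6 in sdg8-5, against 13.5, 4.02 and 12.5 in WT, at least 2.59-fold over the floor of 40. AT1G52560 had 59.4 to 161.7 in sdg8-5 and 2.97 to 7.04 in WT, at least 2.57-fold over the floor, but every array left out in turn ended its call (FDR up to 0.143). AT1G26390 had 976.1, 648.3 and 486.9 in sdg8-5, against 165.4, 166.3 and 185.8 in WT (3.92-fold, SE 0.26 on the log2 scale, limma FDR 0.000231), without overlap. UGT76D1, a glucosyltransferase, had 174.1, 204.7 and 238.8 in sdg8-5, against 66.3, 105.2 and 62.8 in WT (log2 1.43, limma FDR 0.000483). With GT72B1 it made 2 higher and no lower genes of 50 measured UDP-glycosyltransferases (median -0.11), beside 1.21% and 2.97% of all genes. The FDR of GT72B1 was up to 0.0596 without WT replicate 1 or sdg8-5 replicate 2. GI (GIGANTEA), a clock-controlled gene that promotes flowering, had 681.4, 569.3 and 740.4 in sdg8-5, against 357.2, 272.2 and 406.7 in WT (1.94-fold, SE 0.16 on the log2 scale, limma FDR 0.00191). It was the only higher gene of 9 measured flowering genes, none of which was lower (beside 1.21% and 2.97% of all genes). PSB27, an assembly factor of photosystem II, was the second most abundant higher gene, with 8089, 8133 and 7212 in sdg8-5, against 5046, 4833 and 5367 in WT (1.54-fold, limma FDR 0.00293). GLR2.8, a glutamate receptor-like channel named after its values were seen, had 140.9, 84.7 and 86.9 in sdg8-5, against 41.5, 31.6 and 47.5 in WT. AT1G62510, the most abundant of the higher genes, had 11450, 12910 and 6810 in sdg8-5, against 5971, 2983 and 2783 in WT, with an FDR of up to 0.0801 without sdg8-5 replicate 1, sdg8-5 replicate 2, WT replicate 2 or WT replicate 3.

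A run of neighbouring genes on chromosome 5 was higher almost throughout. In the gene order of the TAIR10.1 annotation, 37 measured genes lie between AT5G03880 and DME (AT5G04560), both included, and 27 of them had a mean intensity of at least 100. Of these 27, 26 had a positive log2 difference, 19 were past the threshold as higher (70.4%, beside 1.26% of the 7547 equally bright genes elsewhere) and none was lower. Their median log2 difference was 0.89, a 1.86-fold rise, and the called ones lay between 0.54 and 1.37. The 19 made up 12.7% of all higher genes, which left 131 outside the block. The ends of the block were chosen after the values of all 4 treatments had been seen, so no test of the block is given, and probe sets without a gene name could not be placed.

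The block held genes of unlike function with similar changes. At its first position AT5G03880 had 3525, 3394 and 3955 in sdg8-5, against 1299, 1486 and 1554 in WT (2.51-fold, SE 0.11 on the log2 scale, limma FDR 7.49e-06). SDP1, the lipase that starts the breakdown of stored oil in seedlings, had 2499, 2015 and 1912 in sdg8-5, against 1361, 876.3 and 1081 in WT (log2 0.97, limma FDR 0.00357). SIM (SIAMESE), an inhibitor of cell division during trichome growth, had 1473, 1235 and 1506 in sdg8-5, against 760.1, 793.3 and 678.3 in WT (log2 0.91, limma FDR 0.000644). DME (DEMETER), a DNA glycosylase that removes methylated cytosine, had 653.5, 785.7 and 738.8 in sdg8-5, against 330.8, 369.6 and 318.3 in WT (2.14-fold, limma FDR 0.000841). In each of these 4 genes the lowest sdg8-5 array was above the highest WT array, and each stayed past the threshold without any 1 array. AT5G04250 and AT5G04420 rose by 1.37 and 1.01 on the same scale. GYRB3, a gene named for DNA gyrase B, had a log2 difference of 0.76 and an FDR of 0.0548. The exception among the 27 was AT5G04050, with 87.9, 199.1 and 139.6 in sdg8-5, against 174.1, 129.4 and 126.7 in WT. AT5G04020 (0.19) and AT5G03970 (0.31) were close to level as well. Of the 10 dim genes none was higher and 1 was lower, AT5G03980, with 2.71 to 10.5 in sdg8-5 and 21.5 to 78.9 in WT.

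The genes on either side are given as a description, since the placing of the ends fixes the contrast with them. The 25 nearest measured genes of at least 100 before it had a median log2 difference of -0.01, and the 25 after it -0.07. No gene on either side was higher (beside 1.21% of all genes). There were 5 lower genes before it, including AT5G03050 (-2.15) and AT5G03350 (-1.24), and 1 after it (beside 2.97% of all genes). SIR, the gene measured next after DME, was at 0.005. AT5G03870, the gene measured next before AT5G03880, was at 1.01. It was dim, with means of 74.7 in sdg8-5 and 27.1 in WT, and not past the threshold. The values of the 3 other treatments had been seen when the ends were set and are no independent check. In them the 27 genes had medians of 0.85 with sucrose in darkness, 0.90 with light and 0.86 with both, 26 of them were above 0 in all 4 treatments, and 16 were past the threshold in all 4. A running median over 15 genes in chromosome order, taken over genes with a mean log2 intensity above 7, reached 0.91 inside the block in starved darkness. On the other chromosomes it stayed between -0.38 and 0.33. In the other treatments its highest values, 0.92, 0.90 and 0.98, were again inside the block. Leaving out 1 array at a time kept 12 of the 19 calls throughout. Genomic DNA of this stretch was not analysed here.

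**Figure D2:**
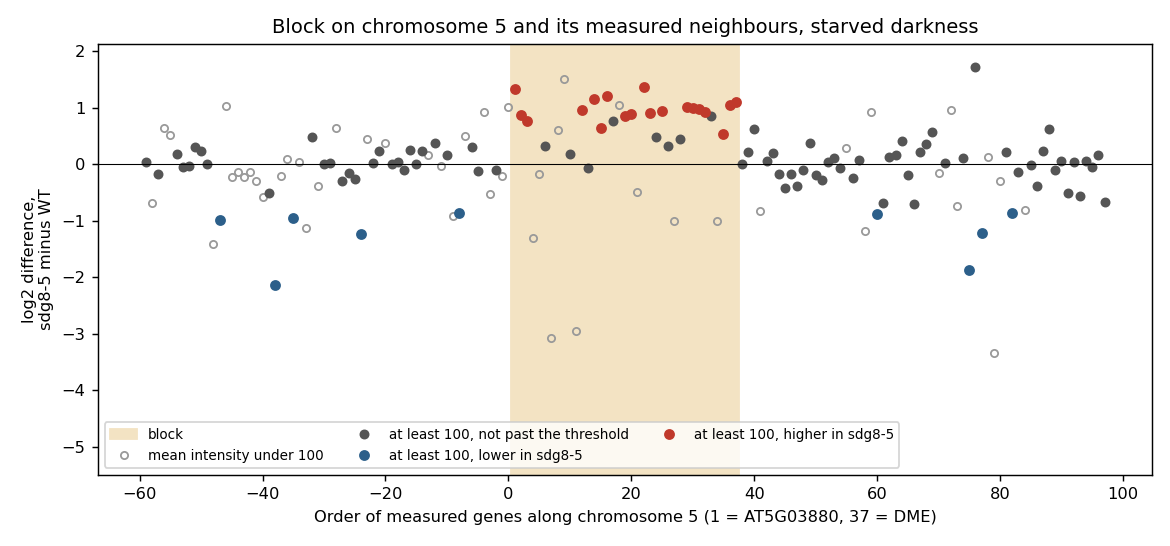
The log2 difference between sdg8-5 and WT in starved darkness for measured genes in chromosome order around the block (shaded), counted from 1 at AT5G03880 to 37 at DME. Filled points have a mean intensity of at least 100, red where higher and blue where lower past the threshold, and open points are dimmer, whatever their call. The 27 filled points of the block have a median of 0.89, and the 25 filled points on each side have medians of -0.01 and -0.07.

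**Figure D3:**
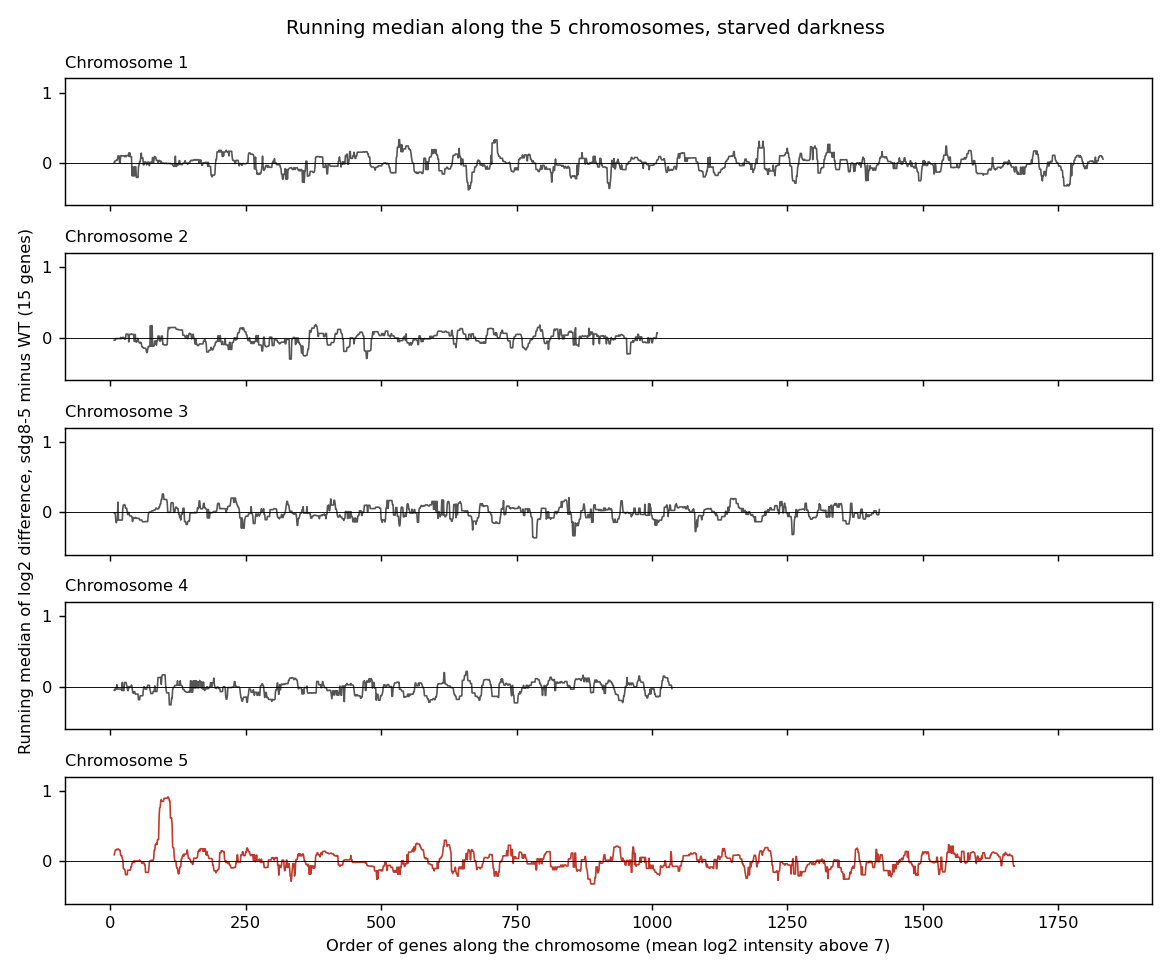
Running median of the log2 difference between sdg8-5 and WT over 15 neighbouring genes in starved darkness, along each of the 5 chromosomes, by gene order. The single peak of 0.91 lies in the block of chromosome 5 (red), while the other chromosomes (grey) stay between -0.38 and 0.33.

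Elsewhere, pairs of changed neighbours were scattered. Among 5277 adjacent pairs with both genes measured, 13 were both lower, 8 both higher and 4 opposite, and 7 of the 8 higher pairs were in the block. Of the measured neighbours of lower genes 26 of 345 were lower too (7.54%, beside 2.97% of all genes). The pairs included AT4G19860 with AT4G19865, and AT1G66070 with AT1G66080 (log2 -0.89 and -2.11). AT1G66070 had an FDR of up to 0.0994 when WT replicate 1, WT replicate 2, sdg8-5 replicate 2 or sdg8-5 replicate 3 was left out. PDF1.2 and the genes on 1 side of it, AT5G44410 and AT5G44400, made a run of 3 (log2 -3.49, -1.22 and -1.01). Neighbouring genes of similar sequence may share probe signal, and overlapping ends were not examined.

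Transcripts of the starvation response itself did not pass the test. Of 8 measured genes of dark and carbon starvation, none was past the threshold in either direction (beside 4.18% of all genes), and 7 had positive differences (median 0.32). MCCA, an enzyme of leucine breakdown, averaged 6409 ± 1046 in sdg8-5 and 4394 ± 856.3 in WT (SD, n = 3 each, log2 0.55, limma FDR 0.46), and IVD of the same pathway had a log2 difference of 0.40 (FDR 0.509). ETFQO, which passes electrons from this pathway to the respiratory chain, had 1691, 1657 and 1493 in sdg8-5, against 1468, 950.8 and 1088 in WT, separate arrays with an FDR of 0.21. Among 11 autophagy genes only ATG8D changed (beside 4.18% of all genes), and 9 of the 11 were below 0 (median -0.16). ATG8D had 463.1, 595.7 and 397.8 in sdg8-5, against 791.2, 813.9 and 877.5 in WT (limma FDR 0.0332). The ATG8D call ended without any of 5 of the 6 arrays (FDR up to 0.135). Photosystem and antenna genes had 1 lower of 8 (beside 2.97% of all genes). It was LHCB4.3, a minor antenna protein of photosystem II, whose call also ended without any of 5 arrays (FDR up to 0.155). None of 4 Calvin cycle, 10 chlorophyll synthesis or 69 plastid-encoded genes was past the threshold (beside 4.18% of all genes). Their medians were -0.16, -0.15 and 0.06.

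Mitochondria-encoded genes had 2 higher of 16 (beside 1.21% of all genes, median 0.10). nad4, a subunit of respiratory complex I, had 2617, 3684 and 3039 in sdg8-5, against 1209, 1357 and 763.7 in WT (log2 1.52, limma FDR 0.0116), and ccb382, for cytochrome c maturation, had 870.5, 1041 and 1075 in sdg8-5, against 533.6, 567.8 and 336.7 in WT (log2 1.08, limma FDR 0.0114). The lowest WT array of both, replicate 3, was also the one with the lowest 25S reading (2950). With the 25S reading as a covariate the FDR was 0.0557 for nad4 and 0.0645 for ccb382. Without WT replicate 3 the FDR was 0.0593 for nad4 and 0.0598 for ccb382, and that for nad4 was also lost without sdg8-5 replicate 2. SAG29, a senescence-associated sugar transporter, averaged 149.0 in sdg8-5 and 38.4 in WT and missed the threshold (log2 2.26, limma FDR 0.309).

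The genotype difference of starved darkness was then followed into the other treatments, which share no array with it. The fitted spread of each gene was shared over all 24 arrays, so calls there are not independent of the choice. Of the 369 lower genes, 357, 354 and 354 also had negative differences with sucrose in darkness, with light and with both, and 339 (91.9%) had them in all 3. In those treatments 198, 140 and 136 of them were past the threshold as lower (backgrounds of 3.2%, 1.5% and 1.5% of all genes), 94 in all 3, and none was past it as higher. Their medians were -0.84, -0.71 and -0.70, beside -1.07 in starved darkness, where the genes had been chosen. Of the 150 higher genes, 142, 141 and 141 kept a positive sign, 55, 39 and 45 were past the threshold (backgrounds of 1.29%, 0.547% and 0.676%), and 23 were in all 3. There were 134 lower and 74 higher genes past the threshold in starved darkness alone. That count does not show that they differ between treatments, which was tested separately. NRPB6B kept the size of its fall, unlike the median lower gene, with log2 differences of -3.08, -3.29 and -3.24 in the other treatments, beside -3.19 in starved darkness, and PDF1.2 had differences of -3.08 with sucrose in darkness and -3.19 with light.

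**Figure D4:**
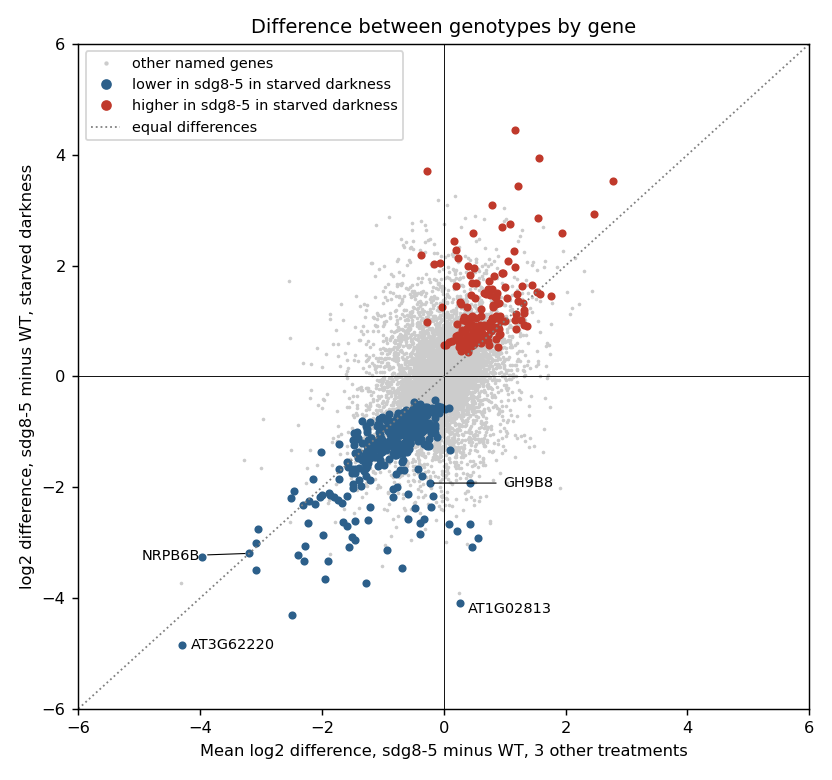
The log2 difference between sdg8-5 and WT for each named gene in starved darkness (vertical axis) and as the mean of the 3 other treatments (horizontal axis). Blue points are the 369 lower and red points the 150 higher genes of starved darkness, grey points are all others, and the dotted line marks equal differences. NRPB6B and AT3G62220 lie near that line, and AT1G02813 lies far below it.

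A difference between starved darkness and the mean of the other treatments was past the threshold for 2 genes (0.0161% of those tested) and for 3 probe sets (0.014%), while 675 had an unadjusted p under 0.05 (5.43%). Set against each of the 3 treatments singly, 0 genes passed in limma, with 770 (6.19%), 626 (5.04%) and 592 (4.76%) at an unadjusted p under 0.05. AT1G02813 had 4.58, 8.27 and 1.47 in sdg8-5, against 75.1, 59.1 and 62.6 in WT, in starved darkness. With sucrose in darkness it had 31.5, 35.2 and 39.2 in sdg8-5, against 45.9, 33.6 and 28.3 in WT, and the genotypes overlapped in the light as well. The fitted difference of differences was -4.36 (SE 0.63, limma FDR 0.0219), but its size rests on sdg8-5 values far below 40. Against a floor of 40 the WT mean in starved darkness was at least 1.64-fold higher, and with 16 added before taking logs the difference was -2.17 (limma FDR 0.0371). Without WT replicate 1 the FDR was 0.0777. It was 0.051 with the 25S covariate and 0.0669 in the unmoderated model on log2 values.

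GH9B8, a glycosyl hydrolase of the endoglucanase family that acts on the cell wall, was brighter. In starved darkness it had 60.8, 134.0 and 67.8 in sdg8-5, against 261.0, 366.0 and 318.0 in WT. In the other treatments the lowest sdg8-5 array was 333.0 and the lowest WT array 413.0, and the log2 differences were -0.32, -0.25 and -0.09. The difference of differences was -1.70 (SE 0.27, limma FDR 0.0413) against the mean of the other treatments. It missed the threshold after quantile normalization (FDR 0.104), after median centring (0.0611) and with the 25S covariate (0.072). It also did so in the unmoderated models on log2 values (0.0677) and on untransformed intensities (0.644). Its FDR was 0.0906 to 0.111 when WT replicate 2, WT replicate 3, sdg8-5 replicate 1 or sdg8-5 replicate 3 was left out, and 0.0581 without WT replicate 1. AT4G13990 (difference -1.99, FDR 0.113) and AT2G04070 (1.46, FDR 0.261) followed and missed the threshold. AT2G04070 had 423.0, 742.9 and 354.0 in sdg8-5, against 94.3, 164.1 and 123.5 in WT, in starved darkness.

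**Figure D5:**
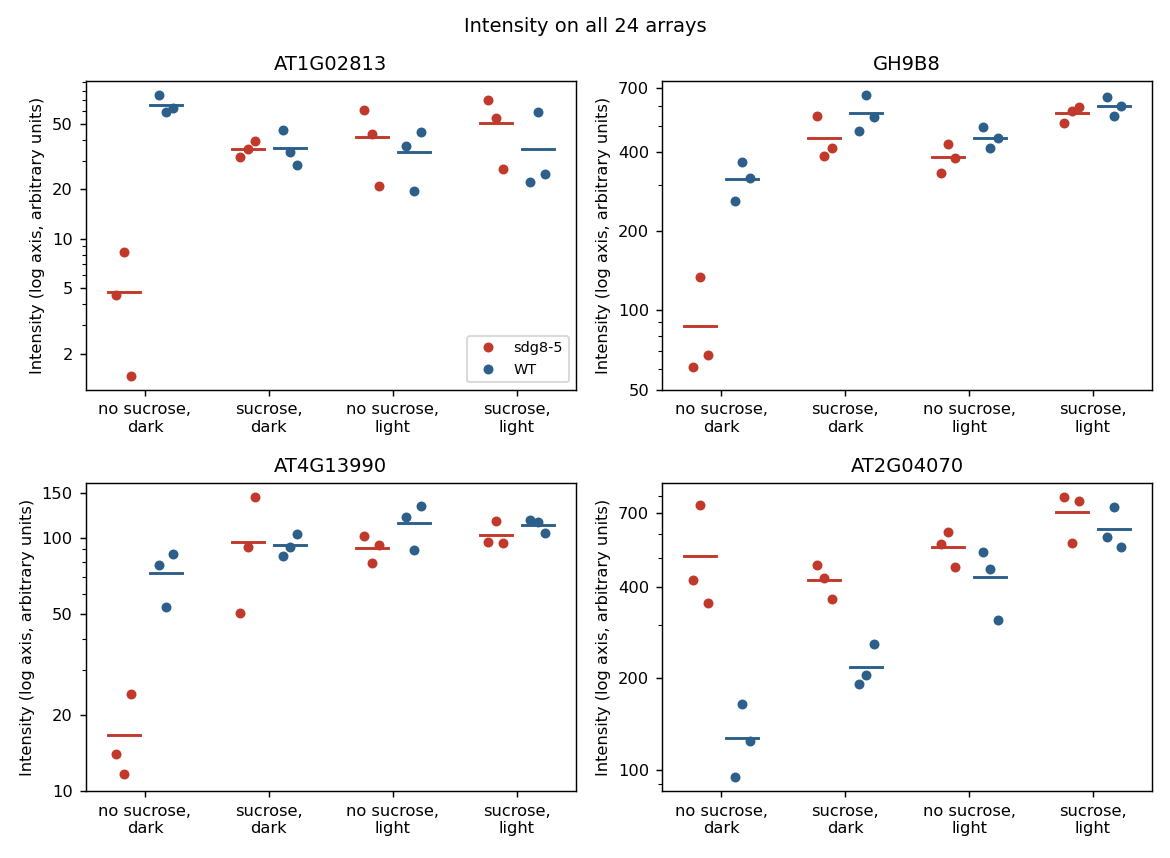
Intensity of 4 genes on all 24 arrays, on log axes in arbitrary units, with sdg8-5 (red) left of WT (blue) in each treatment and bars at the means of 3 arrays. AT1G02813 and GH9B8 were past the threshold for a difference between starved darkness and the other treatments, and AT4G13990 and AT2G04070 were not. In GH9B8 the 3 starved dark sdg8-5 arrays, at 60.8 to 134.0, lie below every other array.

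Whether the changed genes respond to light in WT was read from WT arrays outside the comparison, those with sucrose in light against those with sucrose in darkness. The spread of each gene was fitted over all 24 arrays, so these calls are not independent of how the genes were chosen. Light raised 52 of the 369 lower genes (14.1%, beside 5.95% of all genes) and lowered 43 (11.7%, beside 6.6%). It raised 14 (9.33%) and lowered 13 (8.67%) of the 150 higher genes. Among genes with a WT intensity of at least 200 in the other treatments the shares raised were 16.7% of 299 lower genes, 13.3% of 90 higher genes and 10.1% of all 6126, and the shares lowered were 11.4%, 12.2% and 10.9%. Sucrose in light moved 2 of the lower genes upward and 7 downward (0.542% and 1.9%, beside 0.306% and 0.893% of all genes).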

How the data were processed

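RNA from shoots was hybridized to ATH1 arrays, and the authors deposited MAS5 intensity values on a linear scale, scaled to a common trimmed mean, for 22810 probe sets on 24 arrays. A probe set stayed in the fit if any array read 40 or more (21552 did). Limma 3.58.1 in R 4.3.3 was run on log2 values with a mean for each of 8 conditions, 16 residual degrees of freedom and a prior of 1.813, and p-values were adjusted over all kept probe sets. A probe set was named where the platform annotation lists 1 gene (13513 probe sets, with 503 listing several and 8794 listing none). A gene with several probe sets took the brightest on average, which gave 12431 genes. Names and gene order came from a TAIR10.1 annotation. No genome build is named for the arrays, so no coordinates are given. The members and lists were chosen with earlier results of these data known. Genes named were the 12 largest falls and rises with separate arrays and a mean of at least 100, the 5 most abundant in each direction, up to 4 of each list, the 8 lowest p-values for a difference between treatments, and annotated, neighbouring or block genes picked after their values were seen. Groups are 3 arrays each, which limits the precision. The script was tested on simulated data. Alternatives covered normalization, filters, covariates, a replicate block and left-out arrays. ChIP-seq data were not used here.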

Additional observations from a re-analysis of the deposited data

Results flagged for a closer look

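The genotype effect in starved darkness differed from the mean of the other treatments for AT1G02813 (-4.36 on the log2 scale) and for GH9B8 (-1.70), by limma's test of the difference itself over 12431 genes. The first size rests on values below 40: AT1G02813 had an at least 1.64-fold fall against a floor of 40, and its difference was -2.17 with 16 added before taking logs. It was dim, with 3 sdg8-5 arrays at 1.47 to 8.27 and 3 WT arrays at 59.1 to 75.1. GH9B8 lost its call after quantile normalization (limma FDR 0.104). With the 25S covariate the limma FDR was 0.051 for AT1G02813 and 0.072 for GH9B8.

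A signal outside the main measurement also differed. The control probe set for 25S ribosomal RNA was 2.4 times as bright in sdg8-5 as in WT in starved darkness, with separate arrays in all 3 against 3 (exact permutation p = 0.1, two-sided, the smallest possible), while that for 5S ribosomal RNA read 220.0, 160.0 and 147.0 in sdg8-5, against 323.0, 629.0 and 236.0 in WT. The 25S excess was not confined to starved darkness. Its readings were 6030 to 9258 in sdg8-5 and 1275 to 2801 in WT with sucrose in darkness. With light they were 1037 to 8044 and 410 to 509, and with both 498 to 1196 and 371 to 423. The part of the 25S signal in the gene results was not tested beyond the fit with the reading as a covariate. That reading itself differed between the genotypes in every treatment.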

How the results depend on the processing

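The lower share of the calls was 66.7% to 78.8% in every setting except the fit of the 6 arrays alone. That fit left 7 lower genes and 1 higher gene. With the 25S reading as a covariate there were 258 lower and 99 higher genes. Across all leave-one-out settings the lower genes numbered 60 to 361 and the higher genes 19 to 132, with the fewest when replicate 2 of all conditions was left out. No named gene changed sign in any setting.

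The count of genes whose effect differed from the other treatments was 2. It was 0 with the 25S covariate and with the unmoderated three-way model on log2 values, 1 after quantile normalization, after median centring or with the filter of 100 on 3 arrays, 13 on untransformed intensities, and 0 to 8 in leave-one-out settings.

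Deviations of arrays with the same replicate number had correlations of 0.124, -0.004 and 0.099, and those with unlike numbers -0.14 to 0.046. For sdg8-5 replicates 1 and 3 the WT array of the same number had the highest correlation. The main fit did not take the numbers as pairs, and whether they mark pairs was not tested. With the replicate number as a block, 396 genes were lower, 175 higher and 2 differed between treatments. Leaving out the genes of the chromosome 5 block, an alternative chosen after seeing the data, left 131 higher genes. With 3 arrays a genotype, small changes and genes under an intensity of 40 were hard to resolve.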
